A study of Mus musculus with 44 samples.

Results

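The 10 genes described here encode receptors and ligands that lymphocytes use to pass co-stimulatory or inhibitory signals: Ctla4, Cd28, Cd80, Cd86, Icosl, Pdcd1, Cd274, Pdcd1lg2, Lag3 and Btla. They were chosen by name, with all probe sets annotated to 1 of these symbols alone, and make up 10 of the 18193 genes with a single symbol on the array. Ctla4 was chosen by a measured value, its difference between 2,3,7,8-tetrachlorodibenzo-p-dioxin (TCDD) and dimethyl sulfoxide (DMSO) cells at 12 h, so its values are given as a description with no test. The 10 genes have 16 probe sets, of which 14 passed the filter on dim signals, and every gene kept at least 1. Each gene is read by its brightest probe set unless another is named.

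The RNA came from CH12.LX, a mouse B cell lymphoma line, plated at 100000 cells per ml and activated with LPS (lipopolysaccharide), which comes from the outer membrane of bacteria and drives B cells to divide and secrete antibody. Cells received LPS with 10 nM TCDD, a persistent pollutant that binds AhR (the aryl hydrocarbon receptor), or LPS with DMSO at 0.01%, the vehicle, and were harvested at 8, 12, 24, 36 and 48 h. Untreated cells of the same line were harvested at 0 h. Each of these 11 groups has 4 Affymetrix Mouse 430 2.0 arrays, and cultures with the same replicate number were handled on the same 1 of 4 days. All groups share 1 cell line, so a p-value here covers variation between cultures of this line, not between mice.

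CD28 and CTLA-4 are related receptors that bind the same ligands, CD80 and CD86. CD28 carries the co-stimulatory signal of a T cell meeting an antigen-presenting cell, and CTLA-4 competes with it and restrains the response. PD-1, encoded by Pdcd1, is an inhibitory receptor of activated T and B cells, and PD-L1 (Cd274) and PD-L2 (Pdcd1lg2) are its ligands. ICOS ligand (Icosl) is carried by B cells and other antigen-presenting cells and binds ICOS. LAG-3 is an inhibitory receptor that binds MHC class II, and BTLA is an inhibitory receptor abundant on B cells. Activated B cells are best known for displaying the ligands of this system, while CTLA-4, CD28 and LAG-3 are best known from T cells.

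Several of these genes lie side by side. In the RefSeq table for GRCm38.p6, Cd28, Ctla4 and Icos are consecutive protein-coding genes on chromosome 1, where Pdcd1 also lies, and Cd274 and Pdcd1lg2 are neighbours on chromosome 19. Cd80, Cd86 and Btla lie on chromosome 16, Icosl on chromosome 10 and Lag3 on chromosome 6. The 250 bases before the annotated start are printed for the 4 genes whose TCDD cells are set apart most clearly below, so that the letters can be read beside the values. GCGTG, the core of the AhR binding site, was searched on both strands, and a match is in capitals. RefSeq places these stretches at chr1:60908775-60909024 on the plus strand for Ctla4, chr1:94052554-94052803 on the minus strand for Pdcd1, chr19:29367188-29367437 on the plus strand for Cd274 and chr16:45224087-45224336 on the plus strand for Btla, each written 5′ to 3′ along the gene.
Ctla4: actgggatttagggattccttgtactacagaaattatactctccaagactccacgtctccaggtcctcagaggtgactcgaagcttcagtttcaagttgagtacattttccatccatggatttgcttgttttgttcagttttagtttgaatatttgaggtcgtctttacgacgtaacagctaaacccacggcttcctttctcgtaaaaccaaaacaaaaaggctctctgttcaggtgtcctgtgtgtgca
Pdcd1: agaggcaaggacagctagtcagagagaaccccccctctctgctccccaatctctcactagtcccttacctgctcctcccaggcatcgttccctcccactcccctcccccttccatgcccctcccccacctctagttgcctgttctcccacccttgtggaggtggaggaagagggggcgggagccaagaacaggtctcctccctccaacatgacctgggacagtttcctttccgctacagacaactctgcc
Cd274: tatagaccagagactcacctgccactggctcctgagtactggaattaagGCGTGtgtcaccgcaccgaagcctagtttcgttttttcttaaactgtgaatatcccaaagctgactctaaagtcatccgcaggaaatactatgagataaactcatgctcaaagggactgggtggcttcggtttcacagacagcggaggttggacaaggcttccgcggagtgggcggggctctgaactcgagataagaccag
Btla: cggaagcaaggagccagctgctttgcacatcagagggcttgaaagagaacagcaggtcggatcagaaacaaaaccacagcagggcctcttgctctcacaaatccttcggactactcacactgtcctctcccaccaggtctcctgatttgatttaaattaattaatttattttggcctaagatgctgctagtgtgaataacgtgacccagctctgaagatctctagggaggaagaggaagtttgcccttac
GCGTG occurred in 1 of the 7 members with a sequence in the table, Cd274, 201 bases before the start. It occurred in 28.2% of all 32851 promoters of that length. GGGNNNNNCC, a loose form of the site bound by NF-kB, the family of factors that LPS activates, occurred in 3 of the 7 (Cd80, Icosl and Pdcd1lg2), against 45.8% of all promoters. In Pdcd1lg2 the letters GGGGAATCCC matched on both strands, 244 bases before the start. Each match is a description of these letters in this window.

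Median array signals ran from 45.2 to 99.2, and arrays of 1 group correlated with r from 0.949 to 0.980. The AhR target genes Cyp1a1, Ahrr and Tiparp, read as a check of the treatment, were higher in TCDD than in DMSO cells at all 5 times, Cyp1a1 by 4.50 to 6.01 on the log2 scale. Of 8 listed B cell markers, 7 were measured and all 7 passed the filter. Of 11 T cell markers 7 passed, and Cd3d, Cd247, Cd4 and Foxp3 did not. In technical measures 4 arrays stood apart, untreated replicates 3 and 4, the DMSO array of 12 h from replicate 4 and that of 48 h from replicate 2, and values without them are given where they end a call. In RNA from whole cultures, fewer cells carrying a transcript and less of it per cell cannot be told apart.

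Ctla4 was well above the filter in every group. In this B cell line its group means ran from 7.67 in DMSO cells at 8 h to 12.12 in TCDD cells at 24 h. All levels are log2(signal + 16) after quantile normalization, so 1 unit is close to a 2-fold change and dim genes are compressed. In untreated cells Ctla4 stood at 9.92, 9.78, 9.64 and 9.60 on the 4 arrays. At 8 h the 4 TCDD arrays read 9.67, 9.10, 9.66 and 9.26, and the 4 DMSO arrays 7.95, 7.54, 7.62 and 7.59. The vehicle cells thus lay about 2 units under the untreated cells (difference -2.06), while TCDD cells overlapped with the untreated ones. At 12 h the TCDD arrays read 10.60, 10.47, 11.42 and 10.80, against 8.21, 7.66, 8.44 and 7.91 for DMSO. At 24 h they read 11.93, 11.86, 12.47 and 12.23, against 10.77, 10.65, 10.53 and 10.44. Up to this time no TCDD array came within 1 unit of a DMSO array of the same time and day. At 36 h the TCDD arrays held 12.11, 11.96, 11.97 and 11.90, and the DMSO arrays 11.50, 11.72, 10.67 and 10.98. At 48 h the values were 11.88, 11.77, 11.53 and 11.77 with TCDD and 11.33, 11.53, 10.41 and 10.88 with DMSO. At these late times the groups still did not overlap at 36 h, and at 48 h the highest DMSO array fell just under the lowest TCDD array.

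**Figure D1:**
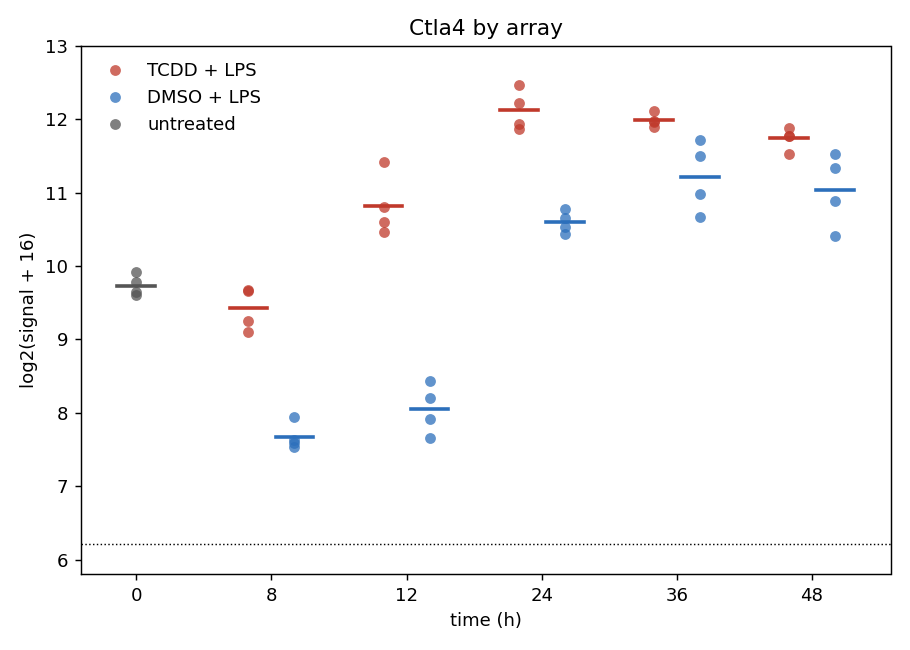
Ctla4 on each array, as log2(signal + 16) against time in hours (evenly spaced), for TCDD cells (red), DMSO cells (blue) and untreated cells (grey), with a bar at each group mean and a dotted line at the filter level of 6.21. The TCDD arrays lie above the DMSO arrays at every time, and the DMSO arrays at 8 and 12 h lie below the untreated ones.

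The TCDD minus DMSO difference of Ctla4 was 1.75 at 8 h, 2.77 at 12 h, 1.53 at 24 h, 0.77 at 36 h and 0.70 at 48 h. It was positive in all 4 same-day pairs at each time, and over the days it spanned 2.40 to 2.98 at 12 h and 0.24 to 1.12 at 48 h. The 12 h difference is 6.82-fold on this scale. The TCDD means were 9.42 ± 0.29 at 8 h, 10.82 ± 0.42 at 12 h, 12.12 ± 0.28 at 24 h, 11.99 ± 0.09 at 36 h and 11.74 ± 0.15 at 48 h, and the DMSO means over the same times 7.67 ± 0.19, 8.05 ± 0.34, 10.60 ± 0.15, 11.22 ± 0.48 and 11.04 ± 0.50 (SD, n = 4). Between 12 and 24 h the vehicle mean gained 2.54, and the TCDD mean 1.30. The DMSO cells thus passed the untreated level between 12 and 24 h, and the TCDD cells between 8 and 12 h. In the order of the 11 group means, TCDD at 24 h came first, then TCDD at 36 and 48 h, DMSO at 36 and 48 h, TCDD at 12 h, DMSO at 24 h, untreated cells, TCDD at 8 h, DMSO at 12 h and DMSO at 8 h. Of the 10 neighbouring pairs in that order, 3 did not overlap: TCDD 36 h over TCDD 48 h, DMSO 24 h over untreated, and TCDD 8 h over DMSO 12 h.

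The T cell markers were read beside Ctla4 because the gene is best known from those cells. Their summed signal at 12 h was 2442 to 2876 in TCDD cells and 1895 to 2315 in DMSO cells, without overlap, and it overlapped at the other 4 times. In limma 0 of the 7 that passed the filter were called between TCDD and DMSO cells at 12 h (1 at an unadjusted p under 0.05, and 1 with the day as a block), against 5.8% of all probe sets tested. Of the 7, Cd8b1 ranged from 9.27 to 10.48 over the 44 arrays, Cd8a from 8.41 to 9.55, Cd2 from 8.15 to 11.23, Zap70 from 6.06 to 9.45, Cd3e from 4.51 to 7.58, Cd3g from 5.03 to 6.93 and Lat from 4.82 to 6.81. Of the 4 under the filter, Cd4, the co-receptor of helper T cells, reached at most 5.11 on any array, Foxp3 6.32, Cd247 6.22 and Cd3d 6.80. Their part in the Ctla4 difference was not tested.

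Among the 9 other genes, TCDD cells differed from DMSO cells in 5, and the set of genes changed with time: Btla and Cd86 were lower early, Cd274 was higher from 8 to 36 h, Lag3 was higher at 24 h and Pdcd1 was higher from 24 h on. Calls are limma adjusted p-values under 0.05 over all 25237 probe sets tested, and all 9 genes passed the filter. At 8 h, 1 gene was higher and 1 lower, against 1.74% and 0.785% of all probe sets tested (2.52% in either direction). At 12 h, 1 was higher and 2 were lower, against 3.77% and 2.03% (5.8% in all). At 24 h, 3 were higher and 0 lower, against 3.19% and 1.55% (4.74% in all). At 36 h, 2 were higher and 0 lower, against 2.27% and 1.28% (3.55% in all). At 48 h, 1 was higher and 0 lower, against 3.12% and 2.86% (5.98% in all). The count at an unadjusted p under 0.05 was 4, 4, 5, 4 and 2 of 9 at the 5 times, and with the day as a block 3, 3, 3, 3 and 1 were called. The shares above are for adjusted p without the block, and none is given for these counts. The median difference of the 9 was 0.04, 0.06, 0.39, 0.16 and -0.02, with the median of all probe sets between -0.03 and 0.00.

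**Figure D2:**
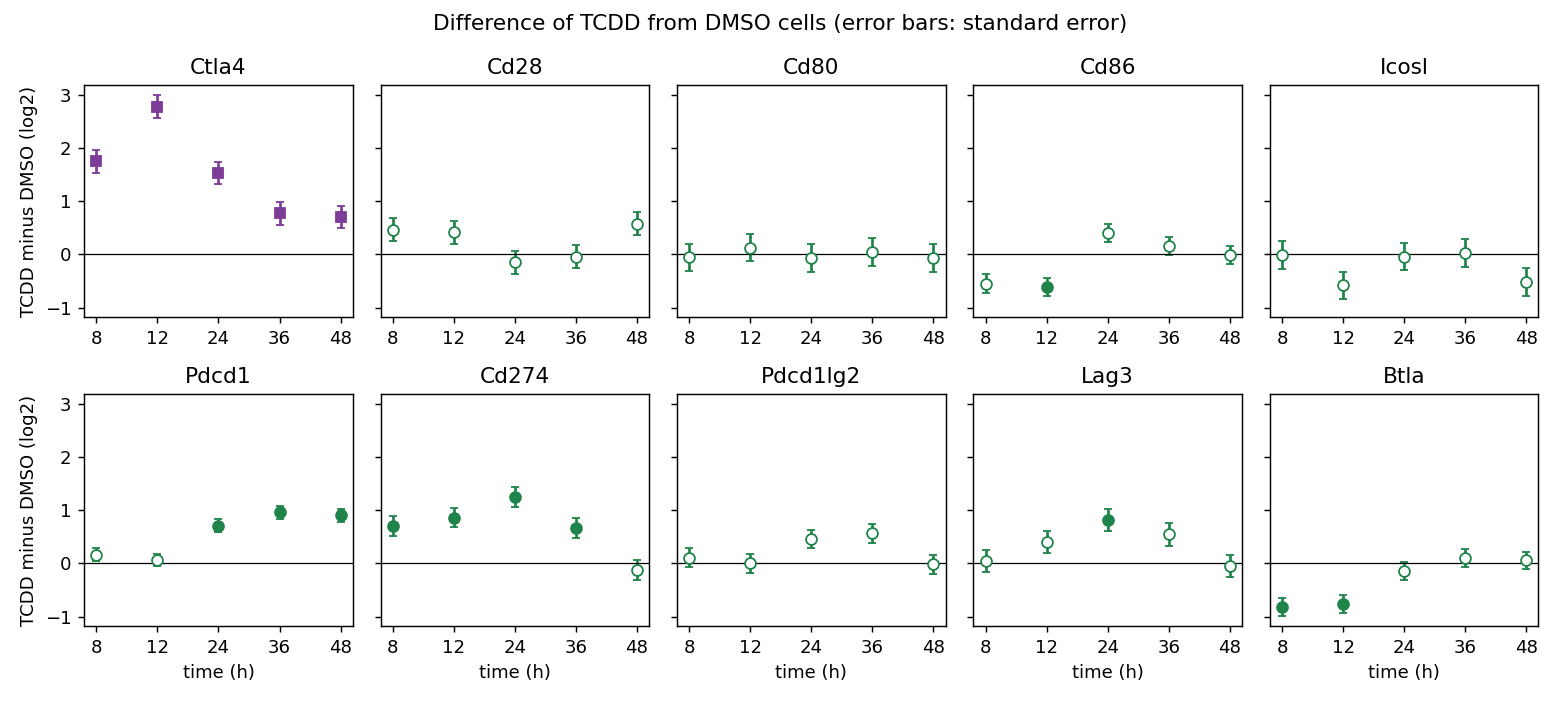
TCDD minus DMSO difference in log2 level at 8, 12, 24, 36 and 48 h for each of the 10 genes, with the standard error of the limma fit as error bars. Filled circles passed an adjusted p of 0.05, open circles did not, and the squares of Ctla4 were not tested. Ctla4 peaks at 2.77 at 12 h, Cd86 and Btla are below 0 at 8 and 12 h, and Pdcd1 is near 0 at 12 h and at 0.96 at 36 h.

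The F test of whether the TCDD difference varies with time called 4 of the 9 genes in limma, Pdcd1 (adjusted p = 0.000435), Cd274 (0.012), Btla (0.0136) and Cd86 (0.0177), against 3.98% of all probe sets tested. Without the arrays of any 1 day, between 1 and 2 of the 9 were called. Pdcd1 was called in each of these 4 fits. Cd86 was lost in all 4 (adjusted p from 0.0672 to 0.293), Cd274 without replicate 1, 2 or 3 (0.0923 to 0.34) and Btla without replicate 2, 3 or 4 (0.0603 to 0.465). With all arrays and the day as a block, the F test called the same 4 genes. Adjusted p was then 0.00016 for Pdcd1, 0.00428 for Cd274, 2.96e-06 for Btla and 0.00242 for Cd86. The second Cd86 probe set was called in both fits (8.43e-06, and 3.84e-07 with the block).

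Against the untreated cells, Pdcd1 fell in the vehicle cells at all 5 times, Cd274 was called higher at 4 times, Cd80 at 3, and Cd28 was lower at 8 h and higher from 24 h on. LPS, the vehicle and time in culture cannot be told apart here, and the 5 comparisons share the untreated arrays. At 8 h, 2 of the 9 genes were higher and 2 lower in DMSO cells, against 10.8% and 9.93% of all probe sets (20.8% in all). At 12 h 1 was higher and 1 lower (10.9% and 10.5%, 21.4% in all). At 24 h 2 were higher and 4 lower (9.05% and 7.69%, 16.7% in all), and the day as a block added Cd274 and Lag3. At 36 h 3 were higher and 3 lower (12.8% and 12.9%, 25.8% in all), and at 48 h 4 and 2 (18.4% and 19.1%, 37.6% in all).

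Cd28, the co-stimulatory receptor next to Ctla4 on the chromosome, did not pass the test between TCDD and DMSO cells at any time but changed over the course of activation. Its TCDD means were 6.95, 7.91, 8.50, 8.41 and 8.62 at 8, 12, 24, 36 and 48 h, and its DMSO means 6.48, 7.50, 8.65, 8.45 and 8.05, with 7.41 ± 0.43 in untreated cells (SD, n = 4). The TCDD minus DMSO difference was 0.46 ± 0.22 at 8 h, 0.42 ± 0.22 at 12 h and 0.58 ± 0.22 at 48 h (standard error), with adjusted p of 0.407, 0.329 and 0.122. At 48 h the arrays read 8.59, 8.68, 8.52 and 8.71 with TCDD and 8.12, 8.09, 7.82 and 8.16 with DMSO, without overlap. The 95% interval of that difference, not adjusted for the number of probe sets tested, ran from 0.13 to 1.02. In vehicle cells Cd28 was lower than in untreated cells at 8 h (-0.93 ± 0.22, adjusted p = 0.00167) and higher at 24 h (1.24 ± 0.22, 5.91e-05), 36 h (1.04 ± 0.22, 0.000388) and 48 h (0.63 ± 0.22, 0.0199). The call at 8 h was lost without replicate 3 (-0.58, adjusted p = 0.118), where the untreated array was the highest at 8.06, and without the 4 arrays standing apart (0.0549). The call at 48 h was lost without replicate 1, 2 or 4 (0.0791 to 0.168). With only the arrays compared, both the 8 h and the 48 h call were lost (0.134 and 0.0743). A second Cd28 probe set gave the same signs at 24 and 36 h, 1.33 and 1.14, both called. Its DMSO means at 8 and 48 h were 5.34 and 6.46, against 6.04 in untreated cells, and neither difference was called. Its 8 h and untreated means lay under the filter level of 6.21.

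Cd80, the first of the ligands shared by CD28 and CTLA-4, climbed through activation in both treatments and did not differ between them by the test. TCDD means were 8.64, 8.89, 9.27, 9.67 and 10.11, and DMSO means 8.70, 8.76, 9.34, 9.62 and 10.18, with 8.59 ± 0.54 in untreated cells. The TCDD minus DMSO differences lay between -0.07 and 0.13, and their 95% intervals within -0.60 to 0.65. At 48 h the DMSO array of replicate 2, 1 of the 4 arrays standing apart, read 9.33, against 10.24 to 10.83 on the other DMSO arrays. In vehicle cells Cd80 was higher than in untreated cells at 24 h (0.75 ± 0.26, adjusted p = 0.0397), 36 h (1.03 ± 0.26, 0.00259) and 48 h (1.60 ± 0.26, 4.81e-06). The 24 h call was lost without replicate 3 (0.61, adjusted p = 0.322) or 4 (0.46, 0.367), and the 36 h call without replicate 3 (0.0516). The 24 h call was also lost without a filter (0.0726) and with only the arrays compared (0.146). Without the 4 arrays standing apart the differences at 24 and 36 h were 0.29 and 0.57, neither called (0.496 and 0.0749). Both other Cd80 probe sets that passed the filter were also higher at 48 h, by 1.47 and 2.12. On 1 of them the TCDD minus DMSO difference at 8 h was -0.50, with an adjusted p of 0.399 that became 0.0338 with the day as a block. That probe set had 12 h means of 8.36 with TCDD and 8.03 with DMSO. The other had 48 h means of 9.01 with TCDD and 9.49 with DMSO, and neither difference was called. A further Cd80 probe set stayed under the filter, with group means between 4.62 and 5.54.

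Cd86, the other shared ligand, was lower in TCDD cells at 12 h, and on a second probe set at 8 h as well. At 8 h the TCDD arrays read 10.91, 10.68, 10.82 and 10.89, against 11.42, 11.32, 11.27 and 11.50 in DMSO. At 12 h they read 10.49, 10.23, 10.42 and 10.21, against 11.02, 10.76, 11.10 and 10.94. No TCDD array reached a DMSO array at either time. The difference was -0.55 ± 0.17 at 8 h (adjusted p = 0.0911, and 0.0244 with the day as a block) and -0.62 ± 0.17 at 12 h (0.0248). The 12 h call was lost without replicate 2 (0.141), 3 (0.0767) or 4 (0.163), and without a filter (0.0531). The second Cd86 probe set passed at both times, with -0.65 ± 0.12 at 8 h (0.000424) and -0.59 ± 0.12 at 12 h (0.000825), and at 24 h it was higher in TCDD cells by 0.53 ± 0.12 (0.00259). There the TCDD arrays held 10.39, 9.99, 10.29 and 9.96, above 9.81, 9.53, 9.67 and 9.48 in DMSO. The brightest probe set had 0.39 ± 0.17 at 24 h with an adjusted p of 0.257 and overlapping groups. At 36 and 48 h the differences were 0.16 and -0.01 (0.22 and 0.11 on the second probe set), and none passed.

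Against untreated cells the Cd86 probe sets disagreed when all arrays were used. The brightest rose in vehicle cells at 8 h by 0.66 ± 0.17 (adjusted p = 0.00507) and fell at 24 h by 0.63, while the second had 0.05 at 8 h and was lower from 12 h on, by -0.35, -0.99, -0.76 and -0.74. The untreated array of replicate 3 read 9.96 on the brightest probe set, against 10.75 to 11.16 on the others. Without replicate 3 the 8 h difference was 0.44 and the call was lost (0.123), and without the 4 arrays standing apart it was 0.30 (0.241). In the same settings the brightest probe set was called lower at 36 h, as the second was, by -0.58 (0.0313) and -0.70 (0.00179). The 24 h call was lost without replicate 1, 2 or 4 (0.0556 to 0.133). With only the arrays compared, the 8 and 24 h calls were lost as well (0.15 and 0.179). Over the 44 arrays the 2 probe sets correlated with r = 0.71, and the vehicle level of both dropped between 12 and 24 h, by -0.87 and -0.64.

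Icosl, the gene of the ICOS ligand, stayed near the filter level of 6.21. Its TCDD means were 6.26, 5.82, 6.05, 6.11 and 5.60 and its DMSO means 6.27, 6.40, 6.09, 6.09 and 6.12, with 6.23 ± 0.45 in untreated cells. The largest TCDD minus DMSO differences were -0.59 ± 0.26 at 12 h and -0.52 ± 0.26 at 48 h, with adjusted p of 0.215 and 0.294. The 12 h groups did not overlap. In limma 0 of its 10 comparisons, TCDD against DMSO and DMSO against untreated, passed (1 at an unadjusted p under 0.05, and 0 with the day as a block), and a second probe set lay under the filter throughout.

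**Figure D3:**
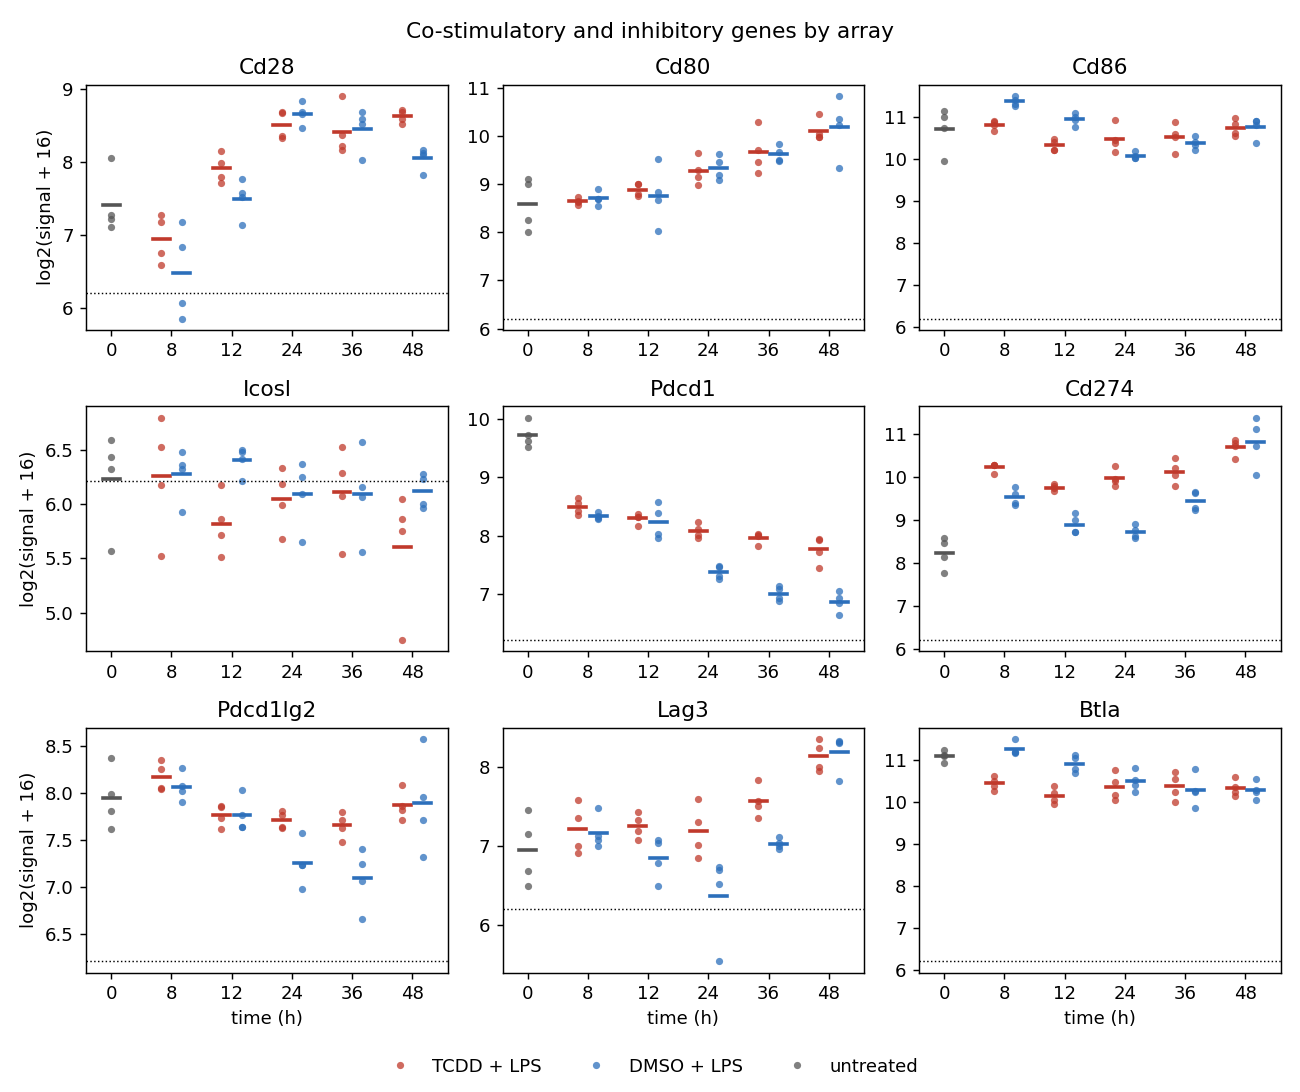
The 9 other genes on each array, as log2(signal + 16) against time in hours (evenly spaced), for TCDD cells (red), DMSO cells (blue) and untreated cells (grey), with a bar at each group mean and a dotted line at the filter level of 6.21. Each panel has its own vertical scale. Pdcd1 falls with time in both treatments and less with TCDD, Cd274 starts higher with TCDD and the treatments meet at 48 h, and Btla and Cd86 are below DMSO at 8 and 12 h.

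Pdcd1, the gene of the inhibitory receptor PD-1, fell during activation, and from 24 h on it stood higher in TCDD than in DMSO cells. In untreated cells it read 9.52, 9.72, 10.03 and 9.63. At 24 h the TCDD arrays held 8.24, 8.02, 8.12 and 7.96, and the DMSO arrays 7.30, 7.46, 7.25 and 7.48. All TCDD arrays thus lay between the untreated and the vehicle arrays. At 36 h the values were 8.01, 8.00, 8.02 and 7.83 with TCDD and 7.08, 7.14, 6.94 and 6.87 with DMSO. At 48 h they were 7.93, 7.95, 7.73 and 7.45 with TCDD, against 6.93, 7.04, 6.85 and 6.63. The same order held at each of these times, with no overlap. The TCDD minus DMSO difference was 0.71 ± 0.12 at 24 h (adjusted p = 8.28e-05), 0.96 ± 0.12 at 36 h (7.82e-07) and 0.90 ± 0.12 at 48 h (2.3e-06), higher in 4 of 4 same-day pairs each time. At 8 and 12 h it was 0.16 and 0.06, and neither passed (0.76 and 0.87). The calls at 24, 36 and 48 h and the fall of the vehicle cells below the untreated cells were made under all 14 alternative settings. That fall was -1.39 at 8 h, -1.49 at 12 h, -2.35 at 24 h, -2.72 at 36 h and -2.86 at 48 h, each with a standard error of 0.12 and an adjusted p of at most 2.78e-11.

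Cd274, the gene of the ligand PD-L1, was higher in TCDD cells at 8, 12, 24 and 36 h and level with DMSO at 48 h. At 8 h the TCDD arrays read 10.07, 10.28, 10.28 and 10.29, against 9.36, 9.40, 9.77 and 9.61 in DMSO. At 12 h they read 9.74, 9.67, 9.83 and 9.79, against 8.71 to 9.16. At 24 h they held 10.25, 9.80, 9.95 and 9.91, against 8.77, 8.59, 8.92 and 8.63. TCDD arrays were above all DMSO arrays at these 3 times. At 36 h they held 10.44, 10.04, 10.20 and 9.79, against 9.65, 9.28, 9.62 and 9.25, still without overlap. At 48 h the TCDD arrays read 10.73, 10.79, 10.85 and 10.42, within the DMSO span of 10.04 to 11.39. The difference was 0.69 ± 0.19 at 8 h (adjusted p = 0.0341), 0.86 ± 0.19 at 12 h (0.00265), 1.25 ± 0.19 at 24 h (1.14e-05), 0.67 ± 0.19 at 36 h (0.0351) and -0.12 ± 0.19 at 48 h (0.823).

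The Cd274 call at 24 h was made under all 14 alternatives, and those at other times were not. The 8 h call was lost without any 1 of the 4 replicates (adjusted p from 0.0561 to 0.373), the 12 h call without replicate 2 (0.0737) and the 36 h call without replicate 1, 2 or 3 (0.0974 to 0.301). Without a filter, which raises the number of probe sets tested, the 8 and 36 h calls were lost as well (0.0712 and 0.0723), the 36 h call also with only the arrays of that time compared (0.0869). In vehicle cells Cd274 was above the untreated level of 8.24 ± 0.36 at 8 h by 1.30 ± 0.19 (1.77e-06), at 12 h by 0.66 (0.00903), at 36 h by 1.21 (4.71e-06) and at 48 h by 2.58 (1.29e-13). The 24 h value, 0.49, had an adjusted p of 0.0665, and 0.0426 with the day as a block. The 12 h call was lost without replicate 2 (0.0562) or 3 (0.0515), and with only the arrays compared (0.0977). The TCDD means stayed between 9.76 and 10.70, while the vehicle means went lower after 8 h, to 8.73 at 24 h, and were highest at 48 h at 10.82 ± 0.58.

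Pdcd1lg2, the gene of the second PD-1 ligand, lies next to Cd274 and covered a narrower range. TCDD means were 8.17, 7.77, 7.71, 7.66 and 7.87, and DMSO means 8.07, 7.77, 7.26, 7.10 and 7.89, with 7.95 ± 0.32 in untreated cells. At 36 h the TCDD arrays held 7.80, 7.48, 7.72 and 7.63, against 6.66, 7.25, 7.40 and 7.07 in DMSO, without overlap. That difference, 0.56 ± 0.18, had an adjusted p of 0.0683, and 0.0487 with the day as a block. At 24 h it was 0.45 ± 0.18 (0.161), again with the groups apart. The vehicle cells were lower than untreated cells at 24 h (-0.69 ± 0.18, 0.00442) and 36 h (-0.85 ± 0.18, 0.000296) and back at -0.06 at 48 h. The 24 h call was lost without replicate 2 (0.0993) and with only the arrays compared (0.0738). Across the 44 arrays Pdcd1lg2 and Cd274 correlated with r = 0.30, a description over arrays that share groups and days.

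Lag3, a receptor for MHC class II, was higher in TCDD cells at 24 h. There the TCDD arrays read 6.85, 7.02, 7.30 and 7.59, against 6.52, 5.54, 6.70 and 6.73 in DMSO. The lowest TCDD array lay just over the highest DMSO array, and the DMSO array of replicate 2 was by far the dimmest. The difference was 0.82 ± 0.21 (adjusted p = 0.0129). The call was lost without replicate 2 (0.60, adjusted p = 0.238) or 4 (0.80, 0.1). It was also lost with only the arrays of that time compared (0.187) and with values as deposited (0.056). At 36 h the groups were apart too, at 7.36 to 7.84 with TCDD and 6.96 to 7.11 with DMSO, but 0.54 ± 0.21 did not pass (0.184). In both treatments the level was highest at 48 h, with means of 8.14 ± 0.19 in TCDD and 8.19 ± 0.25 in DMSO cells, against 6.95 ± 0.43 in untreated cells (SD, n = 4). The vehicle cells at 48 h were above the untreated cells by 1.24 ± 0.21 (8.48e-06).

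Btla, an inhibitory receptor of B cells, was lower in TCDD cells at 8 and 12 h. At 8 h the TCDD arrays read 10.63, 10.27, 10.39 and 10.51, against 11.50, 11.18, 11.19 and 11.19 in DMSO. At 12 h they read 10.38, 10.22, 10.05 and 9.95, against 11.11, 11.06, 10.69 and 10.79. The treatments did not overlap at either time, and the vehicle arrays at 8 h were near the untreated ones, which read 11.25, 11.12, 10.94 and 11.10. The difference was -0.82 ± 0.17 at 8 h (adjusted p = 0.00275) and -0.77 ± 0.17 at 12 h (0.00301), lower in 4 of 4 same-day pairs each time. The 8 h call was lost without replicate 2 (0.117) or 3 (0.0639), and the 12 h call without replicate 2 (0.0922). From 24 h on the difference was -0.14, 0.09 and 0.05, and none passed. By then the vehicle cells had themselves fallen below the untreated cells, by -0.60 ± 0.17 at 24 h (0.0108), -0.81 ± 0.17 at 36 h (0.000342) and -0.82 ± 0.17 at 48 h (0.000163). The 24 h call was lost without replicate 2, 3 or 4 (0.0663 to 0.0876). The TCDD means were 10.45, 10.15, 10.37, 10.38 and 10.34 at the 5 times, so TCDD cells were already at 8 h near the level that vehicle cells had from 24 h on.

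Markers of other cell types and states were read beside these early and late differences. The summed signal of 4 plasma cell markers (Prdm1, Sdc1, Jchain and Irf4) was lower in TCDD cells, without overlap, at 8 h (8741 to 9572, against 10203 to 11174 in DMSO) and at 36 h (6938 to 7806, against 8810 to 10086). At 12, 24 and 48 h the sums of the treatments overlapped. The sum adds linear signals, so the bright Irf4 (log2 mean 13.10 in DMSO cells at 8 h) weighs most in it. The single markers did not all follow the sum. At 8 h Prdm1 was higher in TCDD cells by 0.49 (limma adjusted p = 0.0434), Sdc1 and Jchain had 0.12 and 0.00, and Irf4 had -0.33 (0.124). At 36 h all 4 differences were below 0, and Prdm1 passed (-0.57, 0.0106). In limma 1 of the 4 was called higher at 8 h, and 1 lower at each of 12, 36 and 48 h. At 24 h 0 were called (1 at an unadjusted p under 0.05, and 0 with the day as a block). With the block 3 were called at 12 h. Of all probe sets tested, 2.52%, 5.8%, 4.74%, 3.55% and 5.98% were called at the 5 times without the block. Of 3 myeloid and dendritic cell markers that passed the filter, Itgax was lower in TCDD cells at all 5 times, by -0.74 to -1.20, and Adgre1 higher from 12 h on. The summed signals of that list overlapped at every time. The part of these values in the differences of Cd86, Btla, Cd274 and Pdcd1 was not tested.

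Steps between neighbouring times were also read for the 9 genes. In vehicle cells Cd28 rose by 1.01 from 8 to 12 h, the 1 gene called there, against 0.721% of all probe sets (0.23% higher). From 12 to 24 h Cd28 rose by 1.16, and Pdcd1 and Cd86 fell by 0.86 and 0.87 (3 of 9, against 6.72% of probe sets, 4.26% higher and 2.46% lower). From 24 to 36 h Cd274 and Lag3 rose, by 0.72 and 0.65 (2 of 9, against 7.25%, 3.48% higher). From 36 to 48 h Cd274, Lag3 and Pdcd1lg2 rose, by 1.37, 1.16 and 0.80 (3 of 9, against 12.7%, 5.9% higher). In TCDD cells Cd28 rose by 0.96 from 8 to 12 h (1 of 9, against 1.78%, 0.88% higher). The Cd28 calls of both treatments from 8 to 12 h were lost without replicate 1, 2 or 3. The DMSO step from 24 to 36 h called 1 gene without replicate 1 or 4 and 0 without replicate 2 or 3, and that from 36 to 48 h called 2 without replicate 1. Of the later TCDD steps, limma called 0 of 9 from 12 to 24 h (1 at an unadjusted p under 0.05, 1 with the day as a block, against 6.43% of probe sets, 3.67% higher and 2.76% lower), 0 of 9 from 24 to 36 h (0 unadjusted, 0 with the block, 0.404%) and 0 of 9 from 36 to 48 h (2 unadjusted, 2 with the block, 3.44%). Over all 13 tested probe sets of the 9 genes, 1 was called higher in TCDD cells from 12 to 24 h, and it is not the brightest of its gene. Whether the steps differed between treatments was not tested step by step.

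Related receptors and ligands were read from a list of 25 genes, 18 of which passed the filter, with Vsir and Cd96 as its most lasting members. Between TCDD and DMSO cells 2 were higher and 2 lower at 8 h, 3 and 0 at 12 h, 4 and 0 at 24 h, 3 and 1 at 36 h, and 4 and 0 at 48 h. Of all probe sets tested, 1.74% were higher and 0.785% lower at 8 h, 3.77% and 2.03% at 12 h, 3.19% and 1.55% at 24 h, 2.27% and 1.28% at 36 h, and 3.12% and 2.86% at 48 h. With the day as a block, a fit for which no share is given, 6, 4, 6, 6 and 7 were called. The median difference of the 18 ran from -0.09 at 8 h to 0.21 at 24 h, against -0.01 and -0.03 for all probe sets. Vsir, which encodes the inhibitory ligand VISTA, was higher by 1.07, 1.35, 0.99 and 0.68 at 8, 12, 24 and 48 h (limma adjusted p of at most 0.00843), and at 36 h had 0.26 (0.549). Cd96, a receptor for PVR known from T and NK cells, was higher by 0.82, 1.74, 2.28, 2.05 and 2.56 at the 5 times (adjusted p of at most 0.011). Icos, the receptor next to Ctla4 on chromosome 1, had called differences of 1.39 at 12 h (1.89e-05) and 0.69 at 24 h (0.0447). Lgals9, the gene of galectin-9, was called at 24 h (1.17, adjusted p = 0.0012) and 36 h (0.95, 0.0153). Cd72, an inhibitory B cell co-receptor, was called at 36 h (0.67, 0.00374) and 48 h (0.84, 0.000154).

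Without the block fewer members of that list were lower. Lair1, a collagen receptor with inhibitory motifs, was lower by -0.86 at 8 h and higher by 0.60 at 48 h, Fcgr2b, the inhibitory Fc receptor of B cells, was lower by -0.40 at 8 h, and Ceacam1 was lower by -0.95 at 36 h. Calls lost without 1 replicate were those of Cd96 at 8 h (replicate 1, 2 or 3, adjusted p from 0.0798 to 0.131), Vsir at 48 h (replicate 1 or 3, 0.0532 and 0.103), Icos at 24 h (any, 0.0573 to 0.353), Lgals9 at 36 h (replicate 2, 3 or 4, 0.0858 to 0.152) and Cd72 at 36 h (replicate 1, 0.119). With the day as a block the added calls were Nectin2 (0.43, adjusted p = 0.0225) and Cd5 (-0.53, 0.0141) at 8 h, Fcgr2b (-0.27, 0.0233) at 12 h, and Cd5 (-0.56, 0.00574) and Cd72 (0.39, 0.0185) at 24 h. They were Cd200 (-0.62, 0.00592) and Cd5 (-0.44, 0.0424) at 36 h, and Lgals9 (0.62, 0.0171), Btnl2 (0.61, 0.0432) and Cd200 (-0.51, 0.0195) at 48 h. Fcgr2b at 8 h was lost without replicate 2, 3 or 4 (0.165 to 0.236), Ceacam1 without any 1 of the 4 (0.0796 to 0.5, with a difference of -0.53 without replicate 1) and Lair1 at 48 h without replicate 1, 2 or 3 (0.0576 to 0.252).

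**Figure D4:**
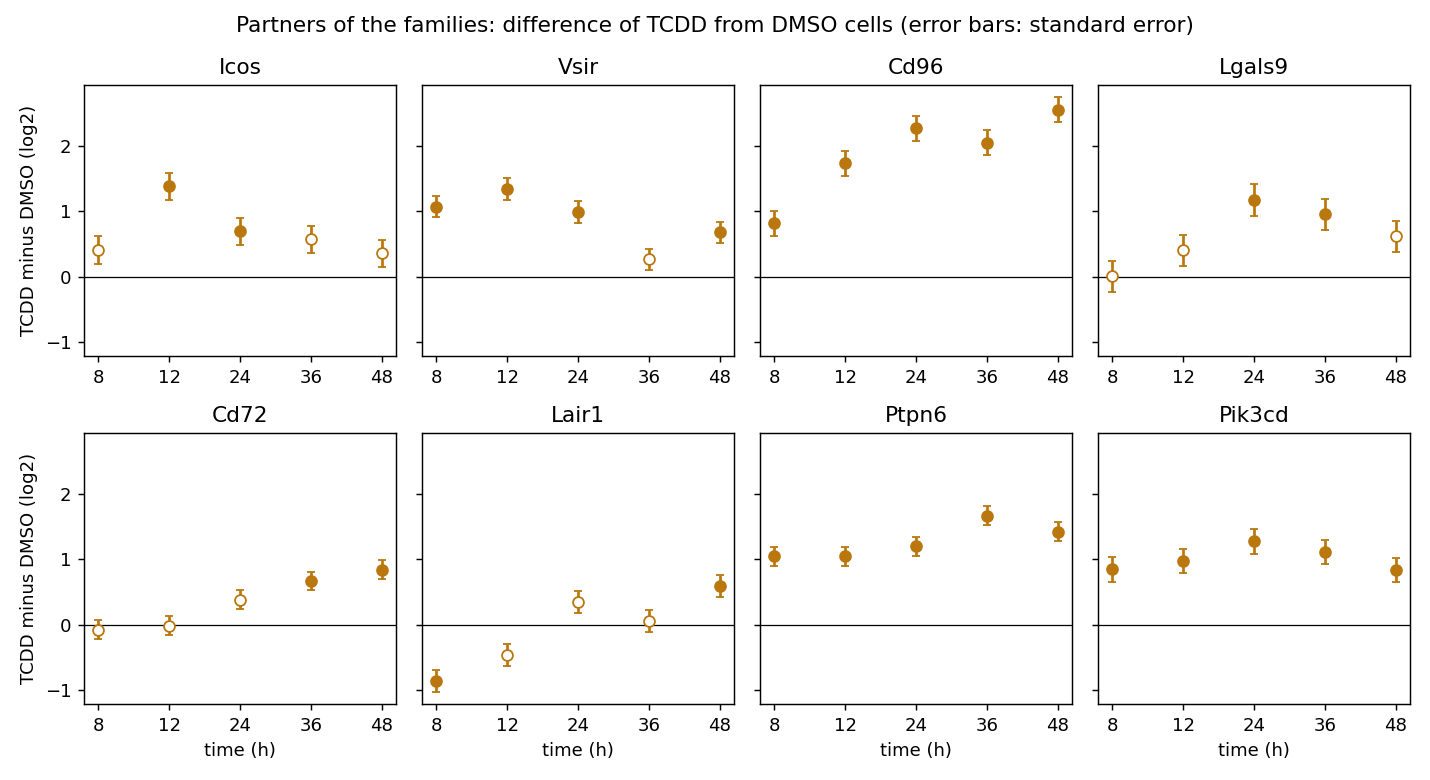
TCDD minus DMSO difference in log2 level at 8, 12, 24, 36 and 48 h for 8 genes of the related receptors and the intracellular partners, with the standard error of the limma fit as error bars. Filled circles passed an adjusted p of 0.05. Cd96 and Ptpn6 are above 0 at all 5 times, and Lair1 is below 0 at 8 h and above it at 48 h.

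Of 10 genes whose proteins act inside the cell with these receptors, all passed the filter, and 2, 2, 2, 2 and 3 were higher in TCDD cells at the 5 times, with 0 lower (3, 3, 2, 4 and 5 at an unadjusted p under 0.05 in either direction). Of all probe sets tested, 1.74%, 3.77%, 3.19%, 2.27% and 3.12% were called higher at those times by adjusted p. Ptpn6, which encodes the phosphatase SHP-1 recruited by inhibitory receptors, was higher by 1.05, 1.05, 1.20, 1.67 and 1.42 (adjusted p of at most 7.14e-06). Pik3cd, the catalytic subunit of phosphoinositide 3-kinase that CD28 and other receptors engage in lymphocytes, was higher by 0.85, 0.98, 1.28, 1.12 and 0.83 (at most 0.00548). Ptpn11, the gene of the related phosphatase SHP-2, was higher at 48 h alone in this test, by 0.36. That call was lost without replicate 1, 2 or 3 (0.109 to 0.121), without a filter (0.0521) and with only the arrays compared (0.221). With the day as a block Ap2m1 at 12 h (0.23, adjusted p = 0.0485) and Lrba at 48 h (0.35, 0.0249) were called as well. The Pik3cd calls at 8 h were lost without replicate 2, 3 or 4 (0.0568 to 0.128) and at 48 h without replicate 3 or 4 (0.0639 and 0.0504). With only the arrays compared, its calls at 8, 12 and 48 h were lost (0.0985, 0.0639 and 0.0649). The median difference of the 10 was 0.09 at 8 h, against -0.01 for all probe sets, and 0.01 at 48 h.

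The genes whose levels followed Ctla4 most closely over the 44 arrays were Septin9, which encodes a cytoskeletal GTP-binding protein (Pearson's r = 0.924), Ermp1, an endoplasmic reticulum peptidase (0.92), Vsir (0.913), Ifi213, an interferon-inducible gene (0.911), and Pfkp, a glycolytic enzyme (0.903), out of 11367 ranked genes. Spearman's rho over the 11 group means was 0.873, 0.982, 0.964, 0.927 and 0.927. These are descriptions over arrays that share groups, days and treatment. Under the 14 alternative settings r stayed between 0.886 and 0.946 for the 5 genes. The 5 genes were picked for following Ctla4 over these same arrays, and Ctla4 for its 12 h difference. Shared lows and 12 h differences thus come largely with the choice and are no further likeness. Each of the 5 had its lowest treated level in DMSO cells at 8 h. The TCDD minus DMSO difference at 12 h was 0.92 for Septin9, 0.52 for Ermp1, 1.35 for Vsir, 0.87 for Ifi213 and 0.93 for Pfkp. Among the members themselves Ctla4 correlated with its neighbour Cd28 at r = 0.81 and with Btla at -0.66, Cd274 with Lag3 at 0.74, and Cd86 with Btla at 0.65 (n = 44 arrays).

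**Figure D5:**
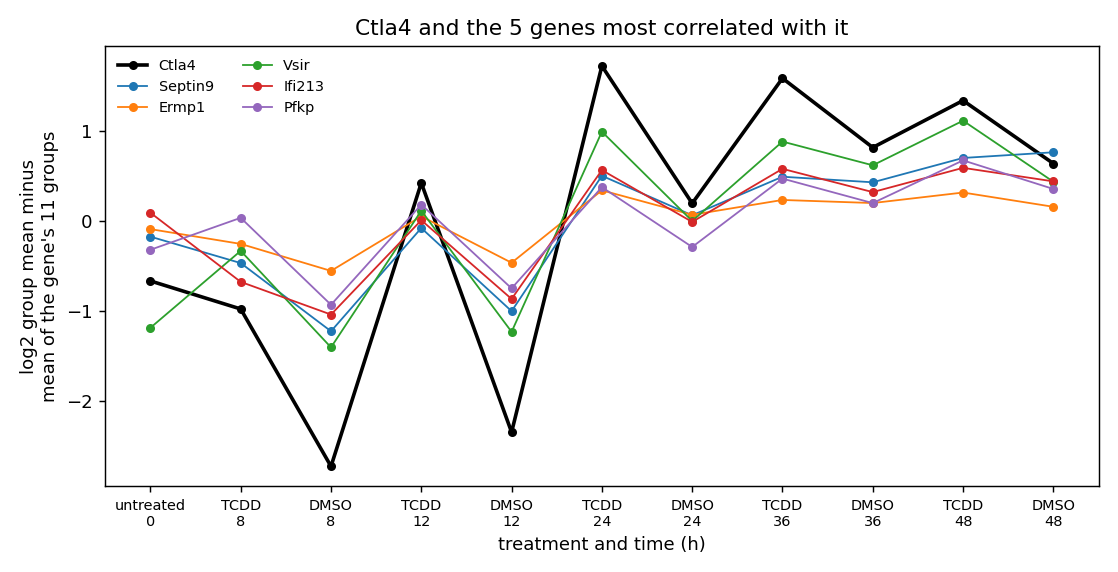
Group means of Ctla4 (black) and the 5 genes most correlated with it, each less the mean of its 11 groups, in log2 units, with groups ordered by time and TCDD left of DMSO. All 6 have their lowest means in DMSO cells at 8 and 12 h, which comes largely with the choice of genes by correlation. Ctla4 is lowest in DMSO cells at 8 h and highest in TCDD cells at 24 h.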

How the data were processed

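Gene expression was measured on 44 arrays, 1 per sample. The deposited values are linear signal intensities, for which the submitters' processing notes name GCOS 1.0, and each deposited column has a mean of 500.0 once 2% of values at each end are left out. Further processing is not given in the sources used here. Values were quantile normalized over probe sets other than 64 controls and turned into log2(value + 16). Probe sets whose highest group mean exceeded 6.21, the median of all values, were tested (25237). Limma 3.58.1 in R 4.3.3 fitted 11 group means (lmFit, eBayes), and two-sided p-values were adjusted per comparison over all probe sets tested by the Benjamini-Hochberg method. The script was tested on simulated data. Figures used matplotlib 3.10.9 in Python 3.11.15.

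Gene names come from the platform annotation, matched to the GRCm38.p6 gene table. No coordinate goes with the array values. A gene is counted by its probe set with the highest mean, and no level is set against that of another probe set. The members, lists and tests were chosen with earlier results of these data known. Of the lists, up to 3 called genes per direction, by size, were taken at the time with most calls and given at all times. Other genes of the lists of related receptors and intracellular partners were named after their values were seen. Probe sets that passed the filter through 1 group alone had to be higher there, so counts over those that passed are read only beside the share of all probe sets. These shares are for adjusted p in the fit without the day. No share goes with counts at an unadjusted p, counts under another setting or groups said not to overlap.

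Per the series' design text the replicate number marks a day, so it pairs samples. Same-day arrays of different groups had deviations from group means that correlated at a median r of 0.17, against -0.06 for other days, and 18 of 20 TCDD and DMSO pairs exceeded 0.1. The fit without the day is the one reported. Alternatives were the day as a block, only the arrays compared, no or a stricter filter, values as deposited, 1 probe set per gene, pseudocounts of 1 and 64, an intensity trend, leaving out each replicate, and leaving out 4 arrays. The precision is limited by 4 arrays per group.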

Additional observations from a re-analysis of the deposited data

Results flagged for a closer look

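In 5 of the 110 groups of 4 arrays examined for the 10 genes, 1 array lay far from the other 3 by Dixon's test at 95%, about the share of 1 in 20 that chance gives. Cd80 read 10.46 on TCDD 48 h replicate 1, with the others between 9.97 and 10.05. Pdcd1 read 7.83 on TCDD 36 h replicate 4, with the others between 8.00 and 8.02. Cd274 read 10.07 on TCDD 8 h replicate 1, with the others between 10.28 and 10.29. Lag3 read 7.82 on DMSO 48 h replicate 1, with the others between 8.30 and 8.32. Btla read 11.50 on DMSO 8 h replicate 1, with the others between 11.18 and 11.19. Replicate 1 accounts for 4 of these 5 arrays.

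Limma's F test of the interaction called a change of the TCDD difference over the 5 times in 4 of the 9 genes, against 3.98% of all probe sets tested. Adjusted p was 0.0177 for Cd86, 0.000435 for Pdcd1, 0.012 for Cd274 and 0.0136 for Btla. Without the arrays of any 1 day, 1 to 2 of the 9 were called, and Pdcd1 alone in every such fit. Cd86 and Btla had their lowest TCDD minus DMSO differences at 8 and 12 h, Cd274 its highest at 24 h and Pdcd1 its highest at 36 h.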

How the results depend on the processing

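Over 14 alternative settings, 1287 values of the 9 genes other than Ctla4 kept their direction and side of the threshold, 61 were no longer called, 18 became called and 0 turned their sign with a call. Ctla4 kept its direction throughout, and 1 of its values moved by more than the spread between arrays, DMSO at 8 h against untreated with a pseudocount of 64 (-1.83). Of the related genes named, 717 values stayed, 49 calls were lost and 4 gained (settings chosen after seeing the data). Signals near the filter, as for Icosl, and 4 arrays per group limit what can be called.

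With the day as a replicate block 2 of 9 genes were called from 8 to 12 h in DMSO cells, 1 from 12 to 24 h and 2 from 36 to 48 h in TCDD cells, and no other count of calls among the 9 genes moved by over 1.5 times. With only the arrays compared the counts were 1 for TCDD against DMSO at 36 h, 2, 1 and 3 for DMSO at 8, 12 and 24 h against untreated, 0 for both steps from 8 to 12 h, and 1 for each of the DMSO steps from 24 to 36 h and from 36 to 48 h. Without a filter 1 gene was called for TCDD against DMSO at 8 h and 1 at 36 h. The DMSO step from 24 to 36 h called 1 gene without a filter, with values as deposited, with a pseudocount of 64 and with an intensity trend. Without the 4 arrays standing apart, counts were 2 for DMSO at 8 h against untreated, 2 and 1 for the TCDD steps from 8 to 12 h and from 36 to 48 h, and 5 for the DMSO step from 36 to 48 h. The number of probe sets tested ran from 18490 with the stricter filter to 45037 without a filter. No share of all probe sets called is given for these settings, so the shifts cannot be set against the array as a whole. The cause of these shifts was not tested.

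Leaving out 1 replicate gave between 0 and 1 calls for TCDD against DMSO at 8 h, 0 to 3 at 12 h, 2 to 3 at 24 h, 1 to 2 at 36 h and 1 to 1 at 48 h. Against untreated, DMSO gave 2 to 4, 1 to 2, 3 to 6, 6 to 6 and 5 to 6. Steps from 8 to 12 h gave 0 to 1 in both treatments, the later DMSO steps 3 to 4, 0 to 1 and 2 to 3, and the F test over time 1 to 2. These ranges too have no share of all probe sets beside them.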
